A study of Mus musculus with 11 samples.

Results

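Chromatin that was open in nearly all control lung epithelia and in few knockouts lay mostly inside genes and away from gene ends. Regions open mostly in knockouts, and regions open in every control and no knockout, had a similar location. Regions with a peak in only 1 list also had a low share at gene ends. The promoters under the regions described here held fewer CG dinucleotides than those of constantly open chromatin. In this they lay closer to promoters as a whole, and the sets of similar location were not compared for it. The regions described here had a peak of open chromatin in 5 or 6 of 6 control libraries and in 1 or 2 of 5 libraries with Prdm3 and Prdm16 deleted. They are called control-leaning regions and were chosen by the presence of peaks in the lists of both genotypes. They numbered 4083 of 82678 regions (4.94%), or 6.2% of the 65887 regions with a peak in at least 3 lists. The regions were made by merging overlapping peaks of all 11 libraries on chromosomes 1 to 19, after each list had been reduced, from the top of its -log10 p values, to the length of the shortest list. Both the number of control lists and the number of knockout lists were part of this choice, so the difference between the genotypes is given as a description and was not tested.

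The data are ATAC-seq peak lists, in which a transposase marks accessible DNA, from lung epithelial cells of mouse fetuses at E17.5. Cells carrying EpCAM, a surface protein of epithelium, were taken from dissociated lungs with microbeads, and 50000 of them were used per library. Knockouts (Prdm3/16KO, n = 5) carried floxed Prdm3 and Prdm16 alleles recombined by ShhCre, a Cre driven by the sonic hedgehog gene and active in lung epithelium, which came through fathers that were Prdm3fl/flPrdm16fl/wtShhCre+ and were mated to Prdm3fl/flPrdm16fl/fl females. The control group (n = 6) is named only Control, so its alleles, floxed ones included, are not known here, nor is it stated that each library represents another fetus.

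Prdm3, whose gene symbol is Mecom, and Prdm16 encode members of the PRDM family of zinc finger regulators, which bind DNA and recruit enzymes and corepressors that modify chromatin. NKX2-1, named in the title of the series, is the homeobox factor that specifies lung epithelium and keeps alveolar genes active. Shortly before birth this epithelium divides into type 2 cells, which make surfactant, and flat type 1 cells, which line the gas-exchange surface. Open sites near gene starts tend to be shared between cell types, while distal sites, many of them enhancers, vary more with cell type and state.

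Depth is unknown, since no read counts were used. The lists held 79525 to 112297 peaks in controls and up to 85704 in knockouts, and several peaks can be summits of the same interval. After the reduction 48613 to 57965 separate intervals remained in control lists and 46360 to 55063 in knockout lists, with the fewest in knockout replicate 5. All 11 lists had a peak within 1 kb of an end of Epcam, Cdh1, Nkx2-1, Foxa2, Krt8 and Krt18, which mark epithelium, 8 lists had one at Sftpc and 0 at Cldn18. Among markers of other cells, Pecam1, Cdh5 and Tie1 (endothelium) and Ptprc, Csf1r and Laptm5 (immune cells) had none in any list. The same held for Col3a1, Pdgfra, Tbx4 and Tcf21 (mesenchyme) and for Gata1, Hbb-bt and Alas2 (red cells). Col1a1, Col1a2, Kdr, Erg, Spi1 and Klf1 had one in all 11. Pdgfrb (pericytes) had a peak in 6 controls and 3 knockouts and, of the mesothelial genes, Wt1 had one in 5 and 1, Msln in 4 and 5 and Upk3b in 0. Tek, an endothelial receptor, had a peak in 6 controls and 0 knockouts. Sox17, also a marker of endothelium, had one in 2 and 0, and Cd68, a macrophage protein, in 5 and 0. Whether the share of other cells moves with the regions described here was not tested.

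Few control-leaning regions covered a gene start. The starts were taken from RefSeq promoters of protein-coding genes (build GRCm38.p6, the build of the peak lists under its name mm10), 300 bases each, 250 before the start and 50 after it. Of the 3925 control-leaning regions on chromosomes with entries in that table, 124 (3.2%) covered a start, against 8470 of 27290 (31.0%) of the regions open in all 11 libraries. The promoter table held 16456 genes, fewer than the 20661 protein-coding genes used for location. Regions over a start missing from it were not counted. The 124 regions held 135 promoters of 126 genes. Their ratio of observed to expected CG dinucleotides, which is low where methylation has eroded CG over evolution, had a median of 0.472 (quartiles 0.270 and 0.698), against 0.801 (0.644 and 0.934) for the 10434 promoters in regions open in all 11 libraries and 0.586 for all 20084 promoters of the table. A ratio below 0.4 was found in 59 of the 135 (43.7%), in 723 of the 10434 (6.93%) and in 7714 of the 20084 (38.4%). By this share the control-leaning promoters lay close to the whole table, and the constantly open ones were farther from it.

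The sequences below show this at single promoters, as the 250 bases before the start, 5′ to 3′ on the strand of the gene, with every CG in capitals. Lrcol1, Spef1l and Ecrg4 are the promoters under the control-leaning regions with the highest control score, Veph1 stands at the median ratio of the control-leaning promoters, and Mtx2 at that of the regions open in all 11. Veph1 and Mtx2 were chosen after their values were seen.
Lrcol1, chr5:110344480-110344729, plus strand: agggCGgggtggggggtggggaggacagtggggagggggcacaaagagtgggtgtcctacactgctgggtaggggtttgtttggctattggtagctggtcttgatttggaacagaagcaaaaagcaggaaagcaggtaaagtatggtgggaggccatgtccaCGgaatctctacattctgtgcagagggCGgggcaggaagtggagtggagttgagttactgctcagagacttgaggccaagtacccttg
Ecrg4, chr1:43730352-43730601, plus strand: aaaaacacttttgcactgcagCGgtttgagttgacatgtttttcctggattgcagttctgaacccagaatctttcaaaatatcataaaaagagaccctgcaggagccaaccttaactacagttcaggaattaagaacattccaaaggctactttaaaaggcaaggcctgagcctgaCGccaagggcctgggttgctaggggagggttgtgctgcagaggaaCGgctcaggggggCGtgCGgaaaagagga
Spef1l, chr7:139978756-139979005, minus strand: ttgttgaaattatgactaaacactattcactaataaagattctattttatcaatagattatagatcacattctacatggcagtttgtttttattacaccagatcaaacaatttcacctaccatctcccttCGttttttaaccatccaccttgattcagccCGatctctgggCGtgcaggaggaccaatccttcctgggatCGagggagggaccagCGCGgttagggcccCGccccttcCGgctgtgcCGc
Veph1, chr3:66296838-66297087, minus strand: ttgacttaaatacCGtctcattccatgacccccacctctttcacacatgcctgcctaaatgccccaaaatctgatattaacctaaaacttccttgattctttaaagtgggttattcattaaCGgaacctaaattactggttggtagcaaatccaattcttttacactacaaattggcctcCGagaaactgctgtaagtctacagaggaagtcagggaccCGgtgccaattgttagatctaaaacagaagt
Mtx2, chr2:74825562-74825811, plus strand: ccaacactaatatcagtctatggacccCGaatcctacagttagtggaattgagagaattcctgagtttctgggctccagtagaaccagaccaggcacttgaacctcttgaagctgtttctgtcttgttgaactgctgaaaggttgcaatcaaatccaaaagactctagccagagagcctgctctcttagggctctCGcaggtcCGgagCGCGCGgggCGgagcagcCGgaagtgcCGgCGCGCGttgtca
These stretches hold 3, 5, 9, 4 and 12 CG dinucleotides. Over the full 300 bases the ratio was 0.206 for Lrcol1, which encodes a colipase-like protein, 0.273 for Ecrg4, which encodes a secreted peptide precursor, 0.805 for Spef1l, 0.472 for Veph1 and 0.801 for Mtx2, which encodes a protein of the mitochondrial outer membrane. The ratio of Spef1l is close to the median of the constantly open promoters, so the control-leaning set was not uniform.

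**Figure D1:**
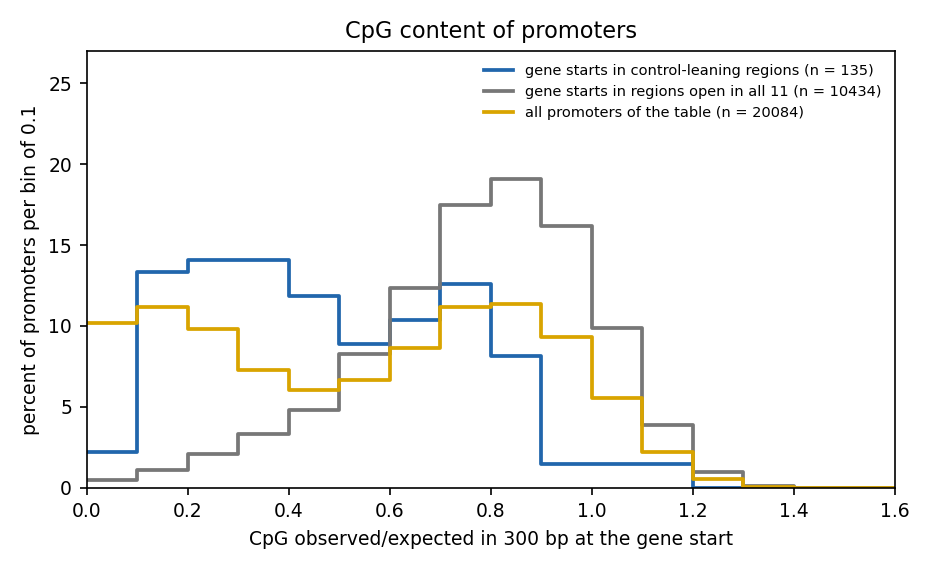
Share of promoters (vertical axis, percent per bin) by the ratio of observed to expected CG dinucleotides in 300 bases at the gene start (horizontal axis), for promoters in control-leaning regions, in regions open in all 11 libraries, and in the whole table. The control-leaning promoters have 43.7% of their number below a ratio of 0.4, the promoters of constantly open regions 6.93%, and all promoters together 38.4%.

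The lower CG content was also seen at equal strength of opening. The strength of a peak was given as its rank within the library, scaled from 1 at the top to near 0 at the last peak kept, with 0 where no peak was called. This rank score is relative to the list, so where fewer intervals share the same number of rows, as in knockout replicate 5, the weakest intervals score higher. Among regions with a mean control score of 0.2 to 0.4, the median ratio was 0.476 for 85 control-leaning promoters and 0.801 for 195 promoters of regions open in all 11. Between 0.4 and 0.6 it was 0.383 for 23 and 0.761 for 1065. The promoters were also searched on both strands for short motif words, with these counts as descriptions. The ETS word CCGGAA was found in 10 of 135 control-leaning promoters (7.41%), in 30.5% of the promoters open in all 11 and in 19.1% of the table. This word itself contains a CG, and the part of CG content in its shares was not tested. The FOXA word TGTTTAC was found in 7.41%, 2.13% and 3.04%, and the NKX2-1 word CAAGTG in 18.5%, 9.92% and 12.9%. The other words are given in the same order of control-leaning, constantly open and all promoters. The word GGAATG of TEAD factors was found in 11.9%, 11.1% and 13.4%. For TTGCNNAA of C/EBP factors the shares were 12.6%, 7.13% and 10.3%. The word TGANTCA of AP-1 was found in 5.19%, 4.24% and 7.06%. For AGATAA of GATA factors and EVI1, the protein of Mecom the shares were 8.15%, 5.0% and 9.57%. The word CCACCC of KLF factors was found in 41.5%, 37.1% and 33.9%. For ACAAAG of SOX factors the shares were 18.5%, 11.8% and 16.6%. The word CACTTGA of NKX2-1, which contains the reverse complement of its shorter word was found in 3.70%, 1.67% and 2.93%. AACCNGGTT of GRHL factors and longer words for NFI and CTCF were found in 0 of the 135. They were rare in the whole table too, in 0.259%, 0.0349% and 0.0747% of promoters, so a count of 0 is not read as a difference. Base composition moved with these shares, with a median of 55.3% G and C in control-leaning promoters, 62.7% in those open in all 11 and 57.0% in the table, and its part in them was not tested.

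The control-leaning regions fell into 4 combinations. A peak in 6 controls and 1 knockout was found in 1209 regions, in 6 and 2 in 1282, in 5 and 1 in 811, and in 5 and 2 in 781. Just outside the rule lay 3855 regions with 5 or 6 controls and no knockout, 2578 with 5 or 6 controls and 3 knockouts, and 1454 with 4 controls and 1 or 2 knockouts. The median control score was 0.450 and 0.460 in the regions with all 6 controls and 1 or 2 knockouts, 0.255 and 0.254 in those with 5 controls, and 0.324, 0.391 and 0.157 in the neighbouring groups in the order given. The opposite pattern, 4 or 5 knockouts and 1 or 2 controls, was met by 1891 regions (2.29%).

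**Figure D2:**
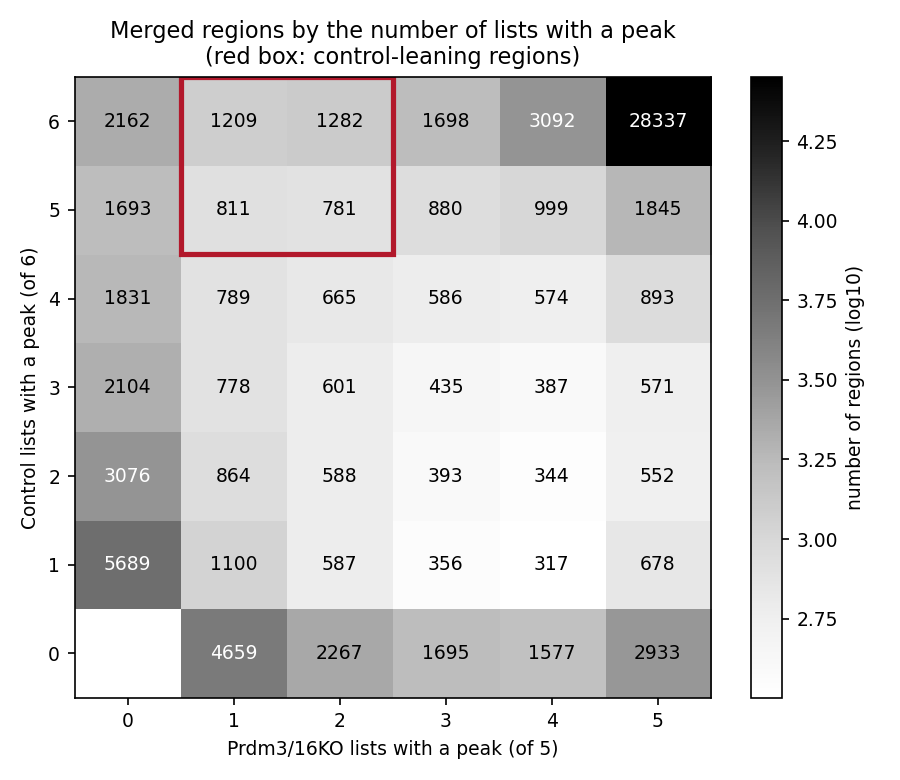
Number of merged regions by the number of control lists (vertical axis) and knockout lists (horizontal axis) with a peak, with shading on a log10 scale. The red box holds the 4083 control-leaning regions, between 2162 regions with a peak in every control and no knockout and 28337 open in all 11.

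Which knockout retained a peak varied from region to region. Knockout replicates 1 to 5 had a peak in 1487, 1313, 1168, 1540 and 638 of the 4083 regions. Controls 1 to 6 had one in 3943, 3883, 3747, 3954, 3410 and 3969. Replicate 5 of the knockouts and replicate 5 of the controls thus held the fewest in their groups, and these were also the lists with the fewest intervals, 46360 and 48613. Of the 2020 regions with a peak in a single knockout, replicates 1 to 5 accounted for 512, 432, 353, 535 and 188. Of the 2063 with a peak in 2 knockouts, the most frequent pair was replicates 1 and 4, with 338 regions, and the least frequent was 3 and 5, with 87. No knockout held most of the retained peaks. In 6 of 14269 absences a knockout had a weaker peak further down its deposited list, and in controls this was so in 76 of 1592 (4.77%). The shortening of the lists left little to find there, since 99.5% to 100% of the intervals of knockouts and 87.1% to 99.96% of those of controls had been kept.

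The summits of retained peaks lay close to control summits. Of 6146 knockout peaks in control-leaning regions, 6105 (99.3%) had their summit within 100 bp of the nearest control summit. The median distance was 4 bp. In regions open in all 11 the share within 100 bp was 99.7% and the median distance 3 bp. Only 1 of the 6146 did not overlap a control peak, which follows largely from the merging of overlapping peaks into regions.

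Retained peaks ranked low. Among the control-leaning regions with a peak in the library, the median score was 0.386, 0.392, 0.444, 0.404, 0.437 and 0.391 in controls 1 to 6 and 0.179, 0.207, 0.204, 0.198 and 0.308 in knockouts 1 to 5. All knockouts were below all controls, an order that the rule favours. Knockout replicate 5 was the highest of its group in score and the lowest in median -log10 p (23.8). Regions open in all 11 had median scores of 0.772 to 0.775 in controls and 0.763 to 0.768 in knockouts. The -log10 p of the retained knockout peaks had medians of 23.8 to 27.8, and 95% of the intervals deposited for a knockout were above 21.0 to 23.0, so these peaks stood little above the weakest peaks of their lists. In controls the medians for the same regions were 41.5 to 76.5, where the corresponding floor was 23.4 to 27.4. In 542 regions (13.3%) the mean score of the knockouts with a peak was above that of the controls with a peak, against 48.6% of regions open in all 11. The authors' fold enrichment had medians of 10.0 to 11.5 in controls and 6.77 to 8.75 in knockouts for control-leaning regions, and of 13.9 to 14.9 and 12.6 to 14.1 for regions open in all 11.

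**Figure D3:**
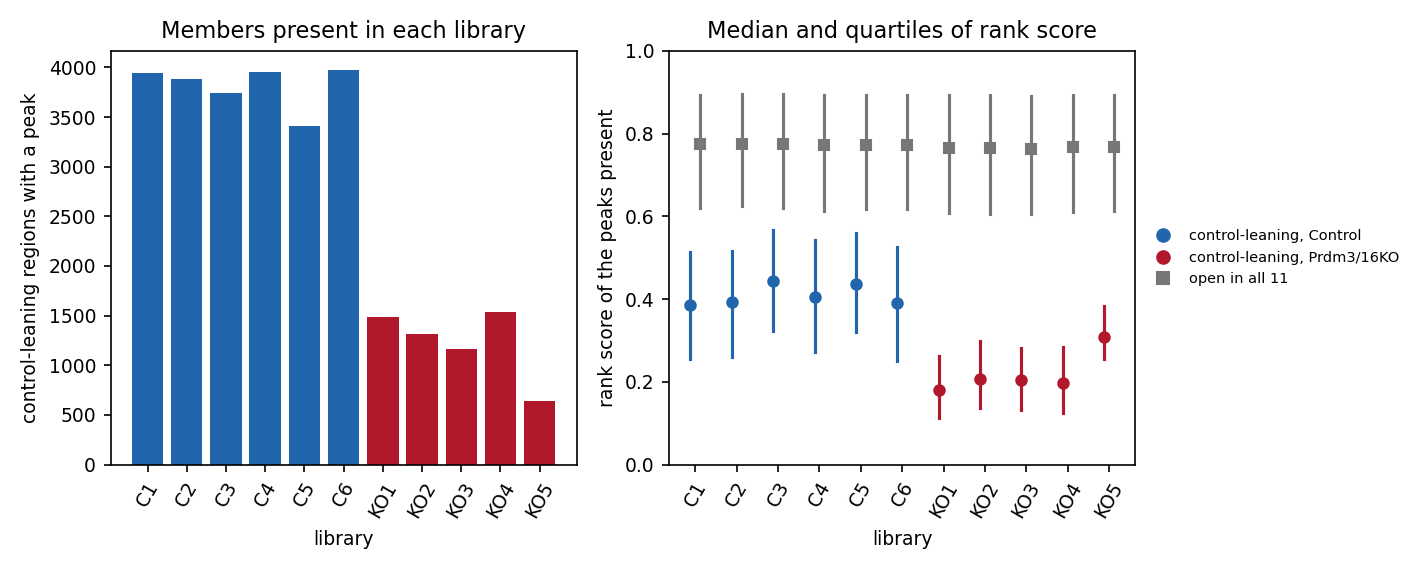
Left, number of the 4083 control-leaning regions with a peak in each control (C1 to C6) and knockout (KO1 to KO5) library. Right, median (symbol) and quartiles (line) of the rank score of the peaks present, for control-leaning regions and, in grey, for regions open in all 11, which stay between 0.763 and 0.775 in every library.

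Control-leaning regions were weaker in controls than constantly open ones. The mean control score, counting 0 for a control without a peak, had a median of 0.360 (quartiles 0.262 and 0.497), against 0.768 (0.616 and 0.889) in the 28337 regions open in all 11. A mean score above 0.6 was found in 447 control-leaning regions (10.9%) and in 77.0% of the others. The merged regions were also narrower, with medians of 684 and 940 bp. Controls varied more in the control-leaning regions, where the SD of the score over 6 controls had a median of 0.119, against 0.0443. These scores come from the same peaks as the rule and are a description of what it chose.

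The location of the regions, which the rule did not use, differed from that of constantly open chromatin. Gene ends, meaning a distance of at most 1 kb from the first or last base of a protein-coding gene, held 328 of the 4083 regions (8.03%). Gene bodies held 2122 (52.0%), the space between genes up to 100 kb from one held 1216 (29.8%), and 417 (10.2%) were farther away. Of the regions open in all 11, 36.8%, 34.9%, 21.3% and 7.0% lay in these classes, and of all 82678 merged regions 17.8%, 44.1%, 27.6% and 10.5%. By the midpoint of the region, which takes no account of its width, the shares at gene ends were 6.54% and 34.6%. The median distance to a gene end was 22676 bp for control-leaning regions and 6940 bp for regions open in all 11. A low share at gene ends was not particular to the control-leaning regions. It was 6.29% in the regions of the opposite pattern and 4.72% in those with every control and no knockout. Regions with a peak in 1 control and no knockout had 6.68%, and those with 1 knockout and no control 5.41%. The share of 17.8% over all merged regions includes the regions open in all 11. Among regions with a peak in 5 or 6 controls, the share at gene ends was 4.8% with no knockout, 6.98% with 1, 9.06% with 2, 12% with 3, 14% with 4 and 35.5% with all 5, and the median control score rose alongside, from 0.324 to 0.750.

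At equal control score the shares still differed, and above a score of 0.2 they ran in opposite directions. Below 0.2 the order was the reverse, with 11.4% of 440 control-leaning regions at gene ends and 4.55% of only 22 regions open in all 11. Of control-leaning regions with a mean control score of 0.2 to 0.4, 8.63% of 1947 lay at gene ends, against 18.6% of 1334 regions open in all 11. From 0.4 to 0.6 it was 6.97% of 1249 and 24.4% of 5149. From 0.6 to 0.8 it was 5.43% of 405 and 31.6% of 9430. Above 0.8 it was 1 of 42 (2.38%) and 48.0% of 12402. Conversely the share farther than 100 kb from any gene was 8.27%, 12.2%, 14.1% and 31.0% in the control-leaning regions of these bands, and 9.45%, 8.18%, 7.40% and 5.92% in the regions open in all 11. Of the 42 control-leaning regions above 0.8, 22 lay in gene bodies (52.4%, against 51.5% to 58.0% in the bands from 0.2 to 0.8), 13 beyond 100 kb, 6 between genes and 1 at a gene end. The share between genes fell to 14.3% as the share beyond 100 kb rose. Regions are not replicates of a genotype, and no test was made over them.

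**Figure D4:**
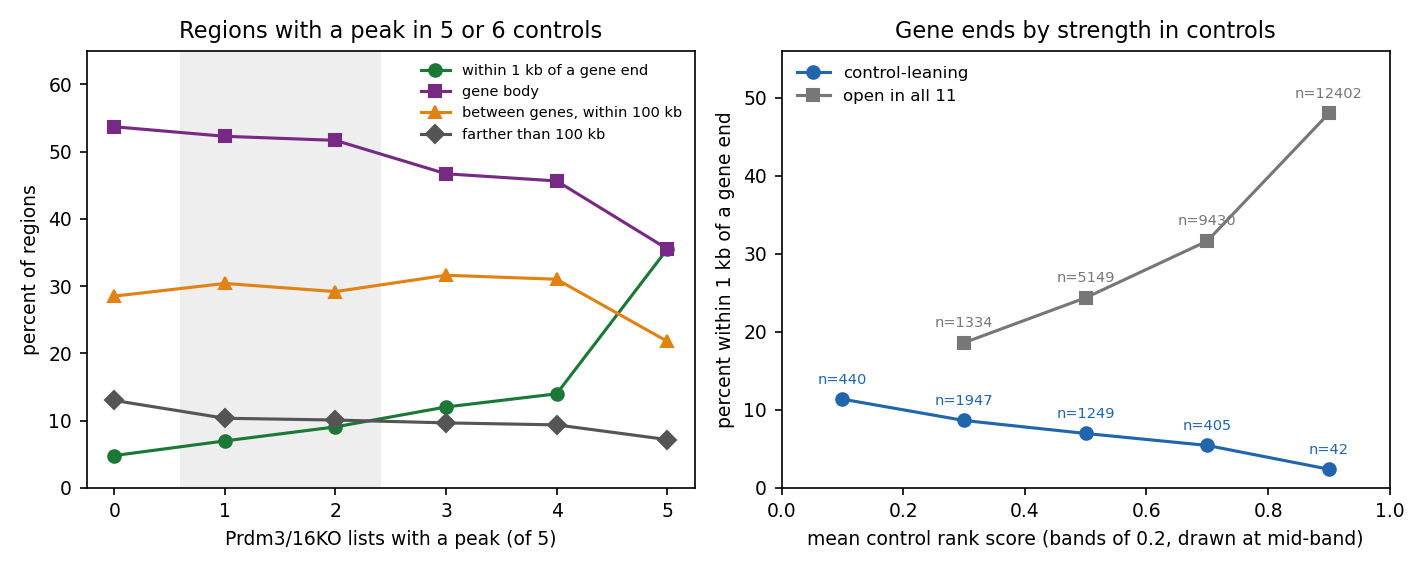
Left, share of regions in each location class (vertical axis) by the number of knockout lists with a peak, for regions with a peak in 5 or 6 controls, with the control-leaning regions shaded. Right, share within 1 kb of a gene end by mean control score, in bands holding at least 40 regions, where control-leaning regions fall from 11.4% to 2.38% and regions open in all 11 rise from 18.6% to 48.0%.

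The control-leaning region with the highest control score and a single knockout peak lay in Bmpr1b, which encodes a type I receptor for bone morphogenetic proteins (chromosome 3, 142138511 to 142139478, inside the gene body). Its score was 0.841 at the lowest, 0.891 at the median and 0.901 at the highest of 6 controls (mean 0.882 ± 0.0231, SD), and 0.155 in knockout replicate 2, with no peak in the other four. A region on chromosome 8 at 7763482 to 7764343, 853 kb from the nearest protein-coding gene, had 0.835, 0.880 and 0.941 in controls and 0.297 in knockout replicate 4. Another on chromosome 8, at 31574183 to 31575004 and 232 kb from a gene, had 0.775, 0.839 and 0.867 in controls and 0.369 in the same knockout replicate 4. Every control was above every knockout in these 3 regions. They were picked for high control scores and a single knockout peak, so this order describes the choice.

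The other 5 regions of highest control score with a peak in 6 controls and 1 knockout were picked in the same way. A region 9.42 kb from the predicted gene Gm38481 (chromosome 2, 53706279 to 53706931) had 0.792, 0.864 and 0.888 as lowest, median and highest control score and 0.458 in knockout replicate 5. One inside Ppp1r9a, encoding the actin-binding scaffold neurabin (chromosome 6, 4993724 to 4994443), had 0.782, 0.829 and 0.899 and 0.266 in knockout replicate 2. One inside Antxr2, encoding a transmembrane receptor that binds matrix proteins (chromosome 5, 97890502 to 97891092), had 0.669, 0.860 and 0.910 and 0.148 in knockout replicate 1. Its controls spread more widely than those at Bmpr1b (SD 0.0907 against 0.0231). A region 56.4 kb from Ero1b, an oxidase of the endoplasmic reticulum, had 0.765, 0.828 and 0.838 and 0.262 in knockout replicate 2. One 5.07 kb from Dnah7b, an axonemal dynein heavy chain of motile cilia, had 0.727, 0.819 and 0.894 and 0.173 in the same knockout. The single knockout peak thus came from replicates 1, 2, 4 and 5 among these 8 regions. It was below the lowest control in each, an order that the choice by high control score favours.

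Where 2 knockouts retained a peak, the retained peaks at times reached the scores of controls. The 4 regions with 6 controls and the highest scores in the 2 knockouts that had the peak were examined. They are the extreme of 1282 regions, in which the score of knockouts with a peak had a median of 0.236. One lay 116 kb from a gene (chromosome 5, 49640801 to 49641786), with 0.752, 0.858 and 0.949 as lowest, median and highest control score and 0.608 and 0.576 in knockouts 3 and 4. One lay 120 kb from a gene (chromosome 2, 92735452 to 92736292), with 0.496, 0.595 and 0.634 in controls and 0.538 and 0.611 in knockouts 2 and 4. At Nefm, encoding a neurofilament subunit (chromosome 14, 68125580 to 68125882, 576 bp from the gene), both knockout peaks, 0.549 in replicate 2 and 0.567 in replicate 4, were above the highest control (0.310, 0.393 and 0.538). Near Myct1 (chromosome 10, 5609924 to 5610588, 3.14 kb away) controls had 0.617, 0.671 and 0.865, and knockouts 4 and 5 had 0.538 and 0.568. In the first and the last of these regions both knockout peaks were below the lowest control. The other 3 knockouts had no peak in each region, as the choice of regions with 2 knockouts requires. At the other end of the set, the region of lowest mean control score (0.0656 ± 0.0521, SD, n = 6) lay 98.8 kb from Etnk1 and had a score of 0.0337 in knockout replicate 3.

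**Figure D5:**
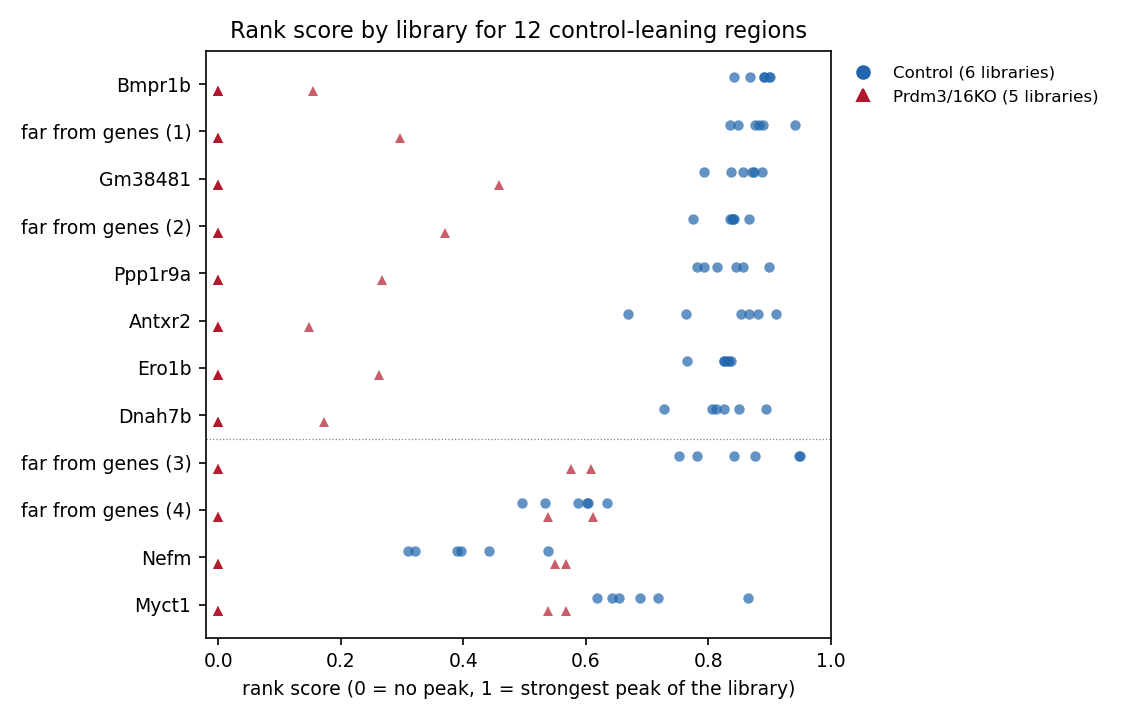
Rank score of each library (points) for the 8 regions of highest control score with a single knockout peak (above the dotted line) and the 4 regions with the strongest pair of knockout peaks (below it), labelled by the nearest gene. At Bmpr1b the controls sit between 0.841 and 0.901, and at Nefm both knockout peaks lie above the highest control of 0.538.

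The regions were spread thinly over many genes. Within 100 kb of a protein-coding gene lay 3666 regions, assigned to 2850 genes, of which 2241 (78.6%) had a single one and 44 had at least 4. Genes with at least 4 were long, with a median of 354 kb, against 58.3 kb for genes with a member and 23.7 kb for all genes with an open region. Between 4.27% (chromosome 7) and 5.49% (chromosome 5) of merged regions were control-leaning on the 19 chromosomes. Another control-leaning region lay within 10 kb of 240 of them (5.88%), and a control-leaning region lay within 10 kb of 6.03% of the regions open in all 11, so they were not closer to each other than constantly open regions were to them. At 491 of the 2850 genes (17.2%) a region of the opposite, knockout-leaning pattern was also assigned, against 1380 of the 15968 genes with any region (8.64%). Genes with a control-leaning region were longer (medians above), and the part of length in this share was not tested.

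Arhgap24, Fmnl2 and Macrod2 had the most control-leaning regions, 6 each, while by share of a gene's regions Zbtb7c and Cmip were higher. Arhgap24 encodes a GTPase-activating protein for Rac (chromosome 5, 102207198 to 102905035) and had 6 of 29 regions (20.7%), all inside the gene body. At 102424668 to 102425599 its controls had 0.728, 0.767 and 0.812 (lowest, median, highest) and knockout replicate 1 had 0.160. At 102599092 to 102599588 they had 0.627, 0.793 and 0.864, and knockout replicate 4 had 0.157. The weakest of the 6 had a mean control score of 0.143, so members of the same gene differed widely in strength. Another 11 regions of Arhgap24 were open in all 11 libraries, and 0 were knockout-leaning.

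Fmnl2, which encodes a formin that elongates actin filaments, had 6 of 33 regions (18.2%), 5 of them in the gene body. The strongest, at 53058174 to 53058883 on chromosome 2, had 0.621, 0.761 and 0.800 in controls and 0.130 in knockout replicate 2. Macrod2, which encodes an enzyme that removes ADP-ribose, had 6 of 66 (9.09%), with mean control scores from 0.289 to 0.660 and 3 knockout-leaning regions beside them. Nsmce2, a SUMO ligase of the SMC5/6 DNA repair complex, had 5 of 39 (12.8%), and the strongest of these, at 59511206 to 59512104 on chromosome 15, had 0.691, 0.811 and 0.870 in controls and 0.348 and 0.253 in knockouts 1 and 5. Zbtb7c, encoding a zinc finger repressor, had 5 of 22 (22.7%), Cmip 5 of 23 (21.7%), Pde7b, a cAMP phosphodiesterase, 5 of 27 (18.5%), and Tns1, a protein of focal adhesions, 5 of 39 (12.8%). In these last 4 genes the mean control scores were lower, from 0.138 to 0.499.

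The targeted genes held none of these regions. Of 29 regions assigned to Prdm16 and 54 assigned to Mecom 0 were control-leaning, and 8 and 12 were open in all 11. Nkx2-1 also had 0 of 12, with 3 open in all 11. For 14 gene lists the control-leaning regions were counted among all regions assigned to the list's genes, beside 4.95% over all genes (3666 of 74007 regions). Over all genes 1605 of these regions (2.17%) were knockout-leaning and 26352 (35.6%) open in all 11. The shares ran from 2.53% to 6.85%, with 9 of the 14 above the share over all genes, and no list was tested against the others.

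Genes of type 2 cells had 11 control-leaning regions of 170 (6.47%), at 9 of 24 genes. The strongest lay 438 bp from an end of Sftpa1, which encodes surfactant protein A (chromosome 14, 41136811 to 41137511), with 0.509, 0.681 and 0.727 as lowest, median and highest control score and 0.337 and 0.177 in knockouts 2 and 4. One inside Etv5, a transcription factor needed to keep type 2 cell identity (chromosome 16, 22404553 to 22405048), had 0.249, 0.656 and 0.713 in controls and 0.299 in knockout replicate 2, so that control replicate 5, the lowest, was below that knockout. Among the others were regions of Sftpd, Slc34a2 (the phosphate transporter of type 2 cells), Lpcat1 (which remodels surfactant phospholipid), Rasgrf1, Scd1, Cd36 and Ank3, with mean control scores from 0.158 to 0.589. Sftpb, Sftpc, Lamp3 and Abca3 had none. Of the list's regions 64 (37.6%) were open in all 11 and 3 (1.76%) were knockout-leaning.

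Genes of type 1 cells had 10 of 243 (4.12%), at 8 of 24 genes, and 14 that were knockout-leaning (5.76%, against 2.17% over all genes). A region 13.5 kb from Emp2, a membrane protein of type 1 cells, had 0.595, 0.697 and 0.733 in controls and 0.294 and 0.0766 in knockouts 2 and 3. One 7.79 kb from Clic5, a chloride channel protein linked to the cytoskeleton, had 0.513, 0.593 and 0.707 in controls and 0.190 in knockout replicate 3. Others were at Rtkn2, Limch1, Ahnak, Spock2, Vegfa and, with 2, Cldn18. Hopx, Ager, Pdpn and Aqp5 had none.

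Transcription factors of lung epithelium had 37 of 609 (6.08%), at 22 of 36 genes. Of these 37, 0 lay at a gene end, against 328 of the 3666 control-leaning regions assigned over all genes. The Notch, Hippo, junction, lipid and glucocorticoid lists also had 0 there, of 14, 7, 20, 6 and 9 control-leaning regions. Few would lie at gene ends in lists of these sizes, so a count of 0 is not read as a difference. Foxp1, a forkhead repressor, Nfia, a nuclear factor I gene, and Rarb, a retinoic acid receptor, had 4 each. The strongest lay 6.05 kb from Nfib, a nuclear factor I gene needed for lung maturation (chromosome 4, 82283440 to 82284124), with 0.614, 0.802 and 0.852 in controls and 0.252 and 0.336 in knockouts 4 and 5. One inside Foxp1 (chromosome 6, 99235373 to 99236008) had 0.614, 0.656 and 0.748 in controls and 0.0987 in knockout replicate 3. Foxa2, Gata6, Mycn and Foxp4 had 2 each, all but 1 of Mycn's between genes.

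Of the signalling lists, BMP and TGF-beta genes had 19 of 322 (5.90%). Of these 19, 16 lay inside gene bodies, against 2122 of 3666 over all genes. Besides Bmpr1b, a region in Tgfb2, a TGF-beta ligand, had 0.414, 0.579 and 0.659 in controls and 0.454 in knockout replicate 4, above the lowest control. Ltbp1, which stores latent TGF-beta in matrix, had 3, and the receptors Tgfbr2, Tgfbr3 and Bmpr1a and the signal transducers Smad3, Smad6 and Smad7 were also represented. FGF and EGF genes had 18 of 271 (6.64%). Among them a region in the receptor Erbb4 had 0.625, 0.714 and 0.799 in controls and 0.131 in knockout replicate 3, and one 11.6 kb from the ligand Fgf2 had 0.480, 0.643 and 0.771 and 0.115 and 0.221 in knockouts 3 and 4. The feedback inhibitors Spred1 and Spred2 had 2 each and Spry2 and Spry4 had 1 each.

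Wnt genes had 24 of 370 (6.49%), at 19 of 41 genes. A region in Ror1, a receptor for noncanonical Wnt ligands, had 0.635, 0.684 and 0.753 in controls and 0.0984 in knockout replicate 1, and one in Tcf7l1, a repressor that binds Wnt target genes, had 0.421, 0.614 and 0.696 and 0.198 and 0.122 in knockouts 1 and 4. Notch genes had 14 of 223 (6.28%), of which 4 were at Maml3, a coactivator of Notch. The strongest of these had 0.388, 0.627 and 0.713 in controls and 0.279 in knockout replicate 5, and the next had 0.360, 0.537 and 0.587 and 0.391 and 0.40 in knockouts 2 and 3, both above the lowest control. Hippo pathway genes had 7 of 212 (3.30%), 3 of them in Wwc1, which encodes the scaffold KIBRA, with mean control scores from 0.365 to 0.439.

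Matrix, laminin and integrin genes had the highest share of the 14 lists, 23 of 336 (6.85%), at 18 of 34 genes. A region in Fras1, a basement membrane protein, had 0.503, 0.618 and 0.721 in controls and 0.438 and 0.307 in knockouts 1 and 3. One 46.0 kb from the laminin chain gene Lamb1 had 0.479, 0.586 and 0.638 and 0.0630 in knockout replicate 4. Junction and polarity genes had 20 of 419 (4.77%), with 3 each at Magi2, a membrane scaffold, and at the polarity genes Pard3 and Pard3b. One in Magi2 (chromosome 5, 20117031 to 20117687) had 0.661, 0.790 and 0.888 in controls and 0.282 and 0.266 in knockouts 2 and 3, and one 15.2 kb from it had 0.509, 0.675 and 0.760 and 0.110 and 0.321 in knockouts 4 and 5.

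Lipid synthesis genes had the lowest share, 6 of 237 (2.53%), at 5 of 32 genes. A region 18.0 kb from Lpcat1 had 0.509, 0.603 and 0.668 in controls and 0.0922 in knockout replicate 2, and one in Dgat2, which makes triglyceride, had 0.441, 0.543 and 0.563 and 0.117 and 0.343 in knockouts 4 and 5. Glucocorticoid response genes had 9 of 160 (5.62%), 3 of them at Zbtb16, a zinc finger gene induced by glucocorticoids. One in Zbtb16 had 0.467, 0.671 and 0.731 in controls and 0.359 and 0.281 in knockouts 1 and 2. One in Scnn1b, a subunit of the sodium channel that clears lung fluid, had 0.503, 0.648 and 0.683 and 0.0663 and 0.0840 in the same knockouts.

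Airway secretory and ciliated cell genes had 5 of 81 (6.17%), with a region 896 bp from Rfx3, a factor of ciliogenesis, at 0.354, 0.489 and 0.579 in controls and 0.111 in knockout replicate 1. One 1.10 kb from Cyp2f2, a cytochrome of club cells, had a peak in 5 controls (0 in control replicate 1, highest 0.624) and 0.0465 and 0.184 in knockouts 1 and 3. Chromatin repressors and PRDM partners had 6 of 159 (3.77%). A region in the corepressor gene Ncor1 had 0.358, 0.613 and 0.729 in controls and 0.111 and 0.489 in knockouts 2 and 4, and one in the DNA methyltransferase gene Dnmt3a had 0.236, 0.429 and 0.502 and 0.343 and 0.263 in knockouts 2 and 5. In both, at least 1 knockout peak was above the lowest control.

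At gene starts of the promoter table, the region of highest control score lay 549 bp from a start of Mras, a small GTPase related to Ras. This region (chromosome 9, 99435125 to 99436163) had 0.699, 0.747 and 0.835 in controls and 0.230 in knockout replicate 3. The region over the Lrcol1 start printed above (chromosome 5, 110344068 to 110344913) had 0.688, 0.737 and 0.782 and 0.118 in the same knockout. A region 700 bp from the predicted gene Gm41607 had 0.609, 0.691 and 0.809 and 0.155 and 0.317 in knockouts 4 and 5, and one 789 bp from a start of Dab2, an endocytic adaptor, had 0.551, 0.712 and 0.766 and 0.329 in knockout replicate 4. Over the Spef1l start (chromosome 7, 139978347 to 139978913) controls had 0.588, 0.657 and 0.822 and knockouts 1 and 2 had 0.454 and 0.296. Over the Ecrg4 start (chromosome 1, 43730240 to 43731156) controls had 0.510, 0.629 and 0.732 and knockout replicate 4 had 0.362. All knockout peaks of these 6 regions were below the lowest control, an order that their choice by high control score favours. The identity of the set depended on list length, since with lists at 50% of the common length the same rule gave 1719 regions, of which 22 were among the 4083.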

How the data were processed

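ATAC-seq peak lists of 6 Control and 5 Prdm3/16KO libraries were used, grouped by their titles. Per the submitters' processing notes, build mm10, MACS2, DiffBind 3 and deepTools were used, without their roles. The aligner and the settings of the peak caller were not stated in what was used here. Units were read from the values and the narrowPeak layout: the authors' deposited fold enrichment is a ratio to the background of a library, the deposited -log10 p and -log10 q (as p-value and q-value) refer to the same library, and the deposited score was not used. All grow with depth, which is unknown, so libraries were compared by rank. Of the rows left out by the common length, 69.1% to 99.8% in controls and 97.6% to 99.0% in knockouts 1 to 4 were other summits of intervals that were kept.

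Overlapping intervals (1 bp or more) were merged and a library counted once per region. The score of a region was that of the library's best peak. Regions were assigned to the nearest of 20661 protein-coding genes of a RefSeq table (GRCm38.p6) within 100 kb. All 367 listed genes matched by symbol. Members, lists and naming rules were chosen with earlier results of these data known. Named were the strongest regions with 6 controls and 1 knockout (8), those with the strongest 2 knockout peaks (4), genes with most regions (8), the 2 strongest per list, 6 at gene starts, the weakest, and any at Prdm16, Mecom or Nkx2-1; genes named beyond these were chosen after their values were seen. Chromosome 18 has no entries in the promoter table, and some genes elsewhere, such as Nefm and Nfib, had no start in it. Planned motif searches of distal regions were not run, for want of a genome here. Alternatives covered list length, q, ranking, merging, chromosomes, distance and leaving out each library. Merging and location code was tested on simulated data. Python 3.11.15, numpy 2.4.6, pandas 2.3.3 and matplotlib 3.10.9 were used.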

Additional observations from a re-analysis of the deposited data

Results flagged for a closer look

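In knockout replicate 5 the control-leaning peaks present had a median score of 0.308, far above the 0.179 to 0.207 of the other four knockouts, and 3.45% of them had a score above 0.5, against 0.807% to 1.28% in the others. The list of this library had the fewest intervals (46360), and 95% of its intervals scored above 0.263, against 0.108 to 0.136 in the other knockouts, so a peak at the floor of this list scores higher; the part of this in the medians was not tested. Without this library the rule gave 4826 regions, and without any 1 of the other knockouts it gave 5262 to 5375. The rule still asked for 1 or 2 knockouts, although fewer lists remained, so these counts do not single out replicate 5. At the region on chromosome 8 that starts at 31574183, control replicate 1 stood below the other five with a score of 0.775. Near Ero1b control replicate 2 stood below the others with 0.765. In all, 28 groups of values were examined for a single value far from the rest, of which chance alone gives about 1 in 20.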

How the results depend on the processing

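No paired analysis was possible because the results come from no test. The number of control-leaning regions was within 1.5 times 4083 in all settings but 1: it was 1719 with lists at 50% of the common length, 22 of which were among the 4083. With 1 list left out it was 4402 to 5375. The rule then asked for 1 or 2 of the fewer knockouts, or for at least 4 of the fewer controls, which is not the same proportion. With the lists as deposited, 4081 of the 4083 were found again among 4385 regions; with 1 row per interval and lists of 46360 rows, 1451 were found again among 2761. The share within 1 kb of a gene end (8.03%, Wilson 95% interval 7.24% to 8.91%, counting error only) was 10.3% with lists at 50% of the common length, 11.8% with 400 bp windows on summits, 15.6% with 3 kb around gene ends and 6.54% for midpoints, and 7.95% to 9.71% with 1 list left out. The median control score (0.360) was 0.481 with the lists as deposited, 0.299 at 50% of the common length, 0.442 with a -log10 q of at least 5, 0.489 with ranking by fold, 0.277 with 1 row per interval, 0.380 with windows, 0.385 over controls with a peak, and 0.325 to 0.372 with 1 list left out. The score is relative to the length of a list, so it moves with that length by construction. Absence from a list means no called peak at unknown depth, not closed chromatin.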

Other observations

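Some promoters under control-leaning regions belong to genes of cilia and flagella, named here after their values were seen and with no test of the group. The share of such genes among all promoters was not counted. In the list of airway secretory and ciliated cell genes, only 5 of 81 regions (6.17%) were control-leaning, against 4.95% over all genes, which is not read as a difference. Those 5 lie at other genes than the ones named here. Mean control scores were 0.557 at Cabcoco1, 0.525 at Catip, which takes part in ciliogenesis, 0.440 at Crocc2, a relative of the ciliary rootlet protein, and 0.392 at Ccdc65, a subunit of the dynein regulatory complex. Other promoters of the set were those of Il6 (0.488), an inflammatory cytokine, Mmp28 (0.455), a matrix metalloproteinase of epithelium, and Ltbp3 (0.475), which binds latent TGF-beta.

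Control-leaning regions also covered 3 microRNA hairpins of the RefSeq table, Mir1936 (mean control score 0.710), Mir3965 (0.455) and Gm51288 (0.455). The 1891 regions of the opposite pattern, open in 4 or 5 knockouts and in 1 or 2 controls, had a similar location, with 6.29% at gene ends, 48.3% in gene bodies, 30.2% between genes and 15.1% beyond 100 kb. The 2162 regions with a peak in every control and no knockout had 4.72%, 54.3%, 28.9% and 12.1%.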
